A study of Mus musculus with 6 samples.

Results

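Glycosphingolipids are lipids with a ceramide in the membrane and a chain of sugars outside it, and the transcripts of 9 enzymes that build them are described here in mouse neural stem cells. The 9 genes, of 23152 measured, were chosen by name as steps of this pathway, around B3gnt5, whose lower signal with Ad-Cre than with Ad-GFP was already known from these arrays. The 9 are B3gnt5, Ugcg, B4galt6, St3gal5, B4galnt1, St8sia1, St8sia5, Gal3st1 and Fut9. The comparison of the viruses that brought B3gnt5 forward is therefore a description for all 9, and no test of it is given for them.

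The cells were isolated from mouse embryonic cortex (embryonic day 14.5) and grown as 3 cell lines, numbered 2, 7 and 8. Per line, 1 culture was transduced with adenoviral Cre recombinase (Ad-Cre), which per the series design switches on mutant IDH, in the series title IDH1 R132H. The control culture was transduced with adenoviral GFP, green fluorescent protein (Ad-GFP), both at 100 MOI, and cells were washed after 24 hours. The labels give neither the promoter of the mutant allele, nor the time of harvest, nor the embryos behind the lines. Arrays with Cre but without a mutant allele are not among these 6, so effects of Cre and of mutant IDH cannot be told apart. There were 3 arrays per virus, 1 per culture, and their number limits the precision of every value. All values are log2 signals.

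Several facts of the whole set bear on these genes. The Ad-Cre array of line 2 stood apart, with Gfap, the astrocyte filament, at 11.27 against 7.48 to 8.33 on the other arrays, and Mki67, a gene of dividing cells, at 10.10 against 12.43 to 12.84. Between its viruses line 2 had 1249 genes that differed by more than 1 unit (5.39% of genes), line 7 had 380 (1.64%) and line 8 had 252 (1.09%). The free-text description of the samples marks the arrays of line 8 the opposite way from those of lines 2 and 7, while titles and transduction labels are clear and were followed. With titles followed, differences over all genes correlated at 0.371 between lines 2 and 7. Those of line 8 correlated at 0.397 with line 2 and 0.556 with line 7. Idh1 differed by 0.18, -0.22 and 0.14 in lines 2, 7 and 8, and it is not known whether its probe sets see the mutant allele apart from the normal one. Of the neural stem cell genes, the brightest were Vim, an intermediate filament, and Fabp7, a fatty acid carrier of radial glia, at mean signals of 14.58 and 13.98 with Ad-GFP.

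Synthesis starts on ceramide. Ugcg adds glucose, B4galt5 and B4galt6 add galactose to give lactosylceramide, and from there the chain branches. St3gal5 adds a sialic acid and opens the ganglioside branch, the main one of the brain, in which St8sia1 makes GD3, B4galnt1 makes GM2 and GD2, and St8sia5 adds further sialic acids. B3gnt5 adds N-acetylglucosamine to lactosylceramide instead and opens the lacto and neolacto branch, on whose chains Fut9 can add the fucose of the Lewis X epitope, a surface mark of neural stem cells. A separate route from ceramide adds galactose first, through Ugt8a, and Gal3st1 turns that product into sulfatide, a lipid of myelin.

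B3gnt5 was the one enzyme of the 9 with a large difference, and it was lower with Ad-Cre in every line. With Ad-GFP it read 10.14, 10.04 and 10.32 in lines 2, 7 and 8, and with Ad-Cre 7.45, 6.85 and 8.09. The highest Ad-Cre array lay far below the lowest Ad-GFP array, so the groups did not overlap. Of all genes, 8.89% had every Ad-Cre array below every Ad-GFP array. Lines 2, 7 and 8 differed by -2.69, -3.18 and -2.23, or 6.44-fold, 9.09-fold and 4.69-fold lower. The mean was -2.70 ± 0.48 (SD, n = 3 lines), which leaves 15.4% of the control signal and stands at rank 10 from the lowest of all 23152 genes. Line 2 did not carry this value, since lines 7 and 8 alone gave -2.71. The spread between lines was 0.15 (SD, n = 3) with Ad-GFP and 0.62 with Ad-Cre, where line 7 read lowest and line 8 highest.

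All 9 probe sets of B3gnt5, each a small group of probes along the gene, were lower with Ad-Cre in all 3 lines. Across all probe sets with 1 gene symbol this was so for 16.4%. Probe sets of 1 gene share the same RNA and are not replicates. Their mean differences ran from -3.46 to -0.45 with a median of -2.86. The one with -0.45 was also the dimmest with Ad-GFP, and its lines 2, 7 and 8 gave -0.04, -0.74 and -0.56. The next smallest difference was -2.06, so 8 of the 9 were lower by more than 2 units. The brightest, at 11.60 with Ad-GFP, gave -2.79.

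A stretch before the start of B3gnt5, the gene with the large difference, is printed here. The stretch begins 250 bases before the start, so the bases nearest the start are left out. It is from RefSeq (GRCm38.p6, chr16:19759984-19760183, plus strand, 200 bases that end before the annotated gene), with a GC box (GGGCGG or, on the other strand, CCGCCC) in capitals.
B3gnt5: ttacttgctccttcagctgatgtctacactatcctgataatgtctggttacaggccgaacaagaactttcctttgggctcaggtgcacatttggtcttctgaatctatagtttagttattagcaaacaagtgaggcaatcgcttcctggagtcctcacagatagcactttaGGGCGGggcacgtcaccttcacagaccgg
It holds 1 such motif, as 24.6% of 32851 windows of this length in the RefSeq table hold at least 1. Among the enzymes with a window, those of Ugcg and St3gal5 hold the motif too, and those of St8sia1 and Gal3st1 do not. The arrays measure no activity of this stretch, and a match is a description only.

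**Figure D1:**
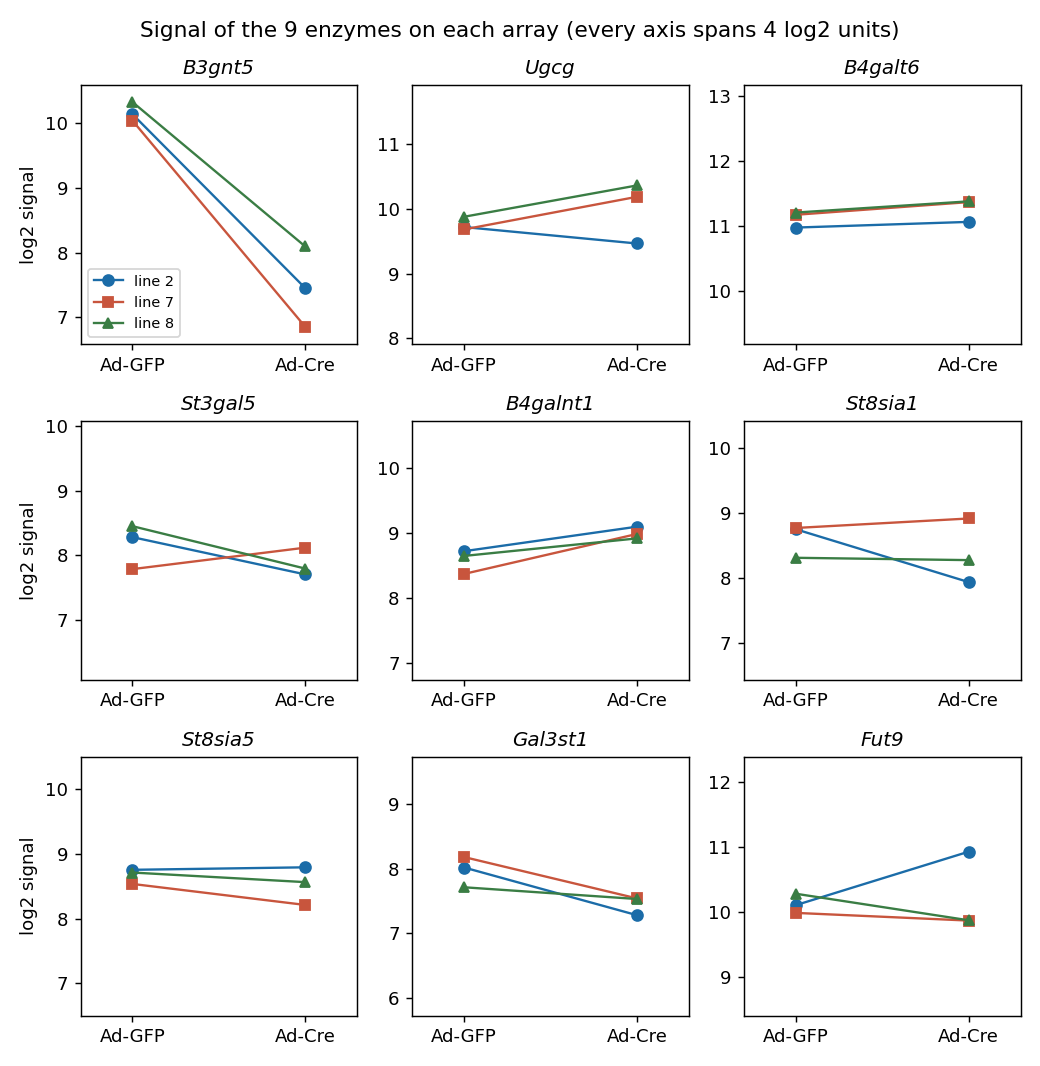
Log2 signal of the 9 enzymes (vertical axes, each spanning 4 units) with Ad-GFP and Ad-Cre, where a marker is 1 array and a line joins the arrays of 1 cell line (2, 7 or 8). B3gnt5 lies between 10.04 and 10.32 with Ad-GFP and between 6.85 and 8.09 with Ad-Cre, while the other 8 differ by less than 1 unit in each line.

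The enzymes of the shared first steps differed little. Ugcg, the glucosylceramide synthase, read 9.72, 9.68 and 9.88 with Ad-GFP and 9.46, 10.19 and 10.36 with Ad-Cre in lines 2, 7 and 8. The difference was -0.25 in line 2 and 0.50 and 0.48 in lines 7 and 8, so the groups overlapped and the mean of 0.24 ± 0.43 (SD, n = 3) was smaller than its spread. Without line 2 it was 0.49. Of its 15 probe sets, 4 were higher in all 3 lines and 0 lower.

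B4galt6, a lactosylceramide synthase abundant in brain, read 10.97, 11.17 and 11.21 with Ad-GFP and 11.06, 11.37 and 11.38 with Ad-Cre. It was higher in every line, by 0.09, 0.20 and 0.17, with a mean of 0.15 ± 0.06 (SD, n = 3), or 1.11-fold. The groups overlapped, because the lines differed among themselves by more than this, and line 2 was lowest with both viruses. Of its 11 probe sets 5 were higher in all lines and 1 lower.

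In the ganglioside branch B4galnt1 was higher in every line, and its partners were not. B4galnt1 read 8.72, 8.37 and 8.65 with Ad-GFP and 9.10, 8.99 and 8.92 with Ad-Cre. Each Ad-Cre array lay above each Ad-GFP array, a pattern that 12% of all genes shared. The differences were 0.38, 0.62 and 0.27 and their mean 0.42 ± 0.18 (SD, n = 3), or 1.34-fold. It rested on most of the gene, with 11 of 14 probe sets higher in all 3 lines and 0 lower, and mean differences from -0.02 to 0.87.

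St3gal5, the GM3 synthase, differed in direction between the lines. It read 8.28, 7.79 and 8.45 with Ad-GFP and 7.71, 8.12 and 7.80 with Ad-Cre. Lines 2 and 8 were lower (-0.58 and -0.65), while line 7 gave 0.33. The mean of -0.30 ± 0.55 (SD, n = 3) was smaller than its spread, and without line 7 it was -0.61. Its brightest probe set gave -0.06, and the median over its 9 probe sets was -0.29.

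St8sia1, the GD3 synthase, read 8.75, 8.77 and 8.31 with Ad-GFP and 7.94, 8.92 and 8.28 with Ad-Cre. The Ad-Cre array of line 2 was the lowest of the 6, with a difference of -0.82, against 0.15 in line 7 and -0.04 in line 8. The mean of -0.24 ± 0.51 (SD, n = 3) turned to 0.06 without line 2. St8sia5 read 8.75, 8.54 and 8.71 with Ad-GFP and 8.79, 8.21 and 8.56 with Ad-Cre, a mean difference of -0.14 ± 0.18 (SD, n = 3). Its lines gave 0.04, -0.32 and -0.15, and the groups overlapped.

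Gal3st1, the sulfatide synthase, was lower with Ad-Cre in every line. It read 8.02, 8.18 and 7.71 with Ad-GFP and 7.28, 7.54 and 7.53 with Ad-Cre, without overlap of the groups. Among all genes, 8.89% had every Ad-Cre array below every Ad-GFP array. The differences were -0.74, -0.64 and -0.18, with a mean of -0.52 ± 0.30 (SD, n = 3), or 1.43-fold. Its 5 probe sets disagreed. In 3 the mean differences were -1.35, -1.06 and -1.04, lower in all lines, in 1 it was -0.03, and in the dimmest with Ad-GFP, at 6.67, it was 0.21 and higher in all lines. The brightest alone gave -1.06, so the size for Gal3st1 depends on the probe sets used.

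Fut9, the fucosyltransferase of Lewis X, read 10.10, 9.98 and 10.28 with Ad-GFP and 10.93, 9.87 and 9.87 with Ad-Cre. The Ad-Cre array of line 2, which also stood apart for Gfap and Mki67, was the highest of the 6. Fut9 was higher by 0.83 in line 2 and differed by -0.12 and -0.41 in lines 7 and 8. The mean of 0.10 ± 0.65 (SD, n = 3) became -0.26 without line 2. None of its 7 probe sets had the same direction in all 3 lines. B3gnt5, which opens the neolacto branch, was lower in all lines, while Fut9, which caps its chains, was mixed through line 2. In lines 7 and 8 both were lower, Fut9 by much less.

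**Figure D2:**
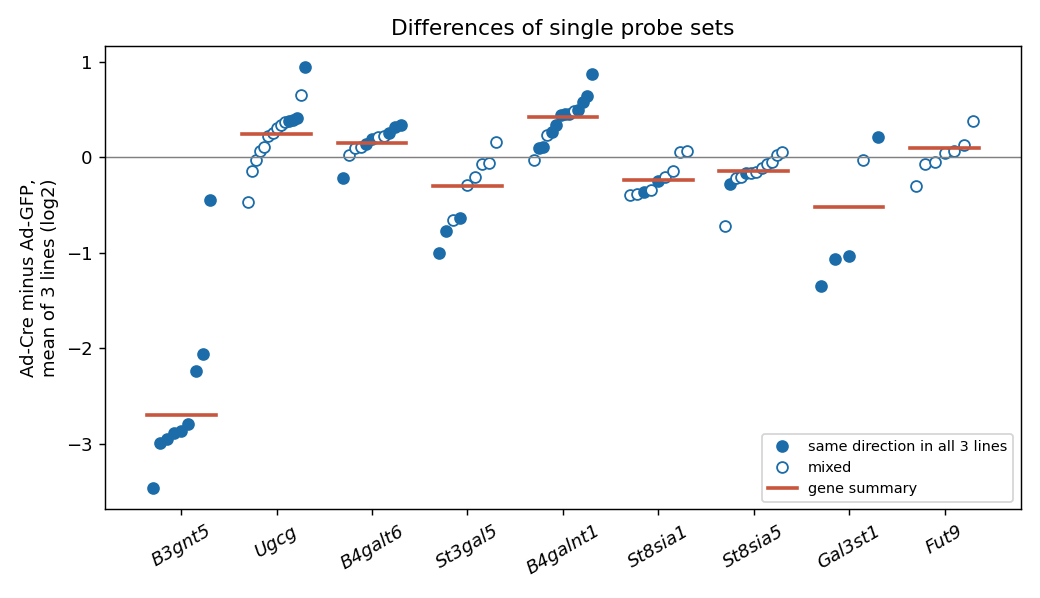
Mean difference of each probe set of the 9 enzymes (vertical axis, Ad-Cre minus Ad-GFP over 3 lines, log2), filled where all 3 lines had the same direction and open where they did not, with a bar at the value of the gene. All 9 probe sets of B3gnt5 lie below 0, down to -3.46, those of Gal3st1 fall into 3 near -1 and 2 near 0, and those of Fut9 lie on both sides of 0.

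Counted together, 2 of the 9 enzymes were lower in all 3 lines (B3gnt5 and Gal3st1) and 2 were higher in all 3 (B4galt6 and B4galnt1). Among all genes 16.2% were lower in all 3 lines and 22.1% higher. By line, 5 of the 9 were lower in line 2, 4 in line 7 and 6 in line 8, with medians of -0.25, 0.15 and -0.15. In each line B3gnt5 was the 1 enzyme past a difference of 1 unit. These counts come from the comparison that brought the genes forward, and nothing is read from them. The median over the 9 was -0.14, against 0.03 over all genes.

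Differences between the cell lines were not used to choose these genes and could be tested. By limma's moderated F test over the 3 lines, 0 of the 9 enzymes had an adjusted p under 0.05, where 2 of 23152 genes did (0.00864%). These were Kdm5d and Uty, both genes of the Y chromosome. At an unadjusted p under 0.05 there were 0 of the 9 too, against 4.92% of all genes, so few genes could be told apart between lines in this design. Without line 2 it was 37 genes, without line 7 it was 0 and without line 8 it was 1, with 0 of the 9 enzymes each time. B3gnt5 had the widest range, with means over both viruses of 8.79, 8.44 and 9.21 in lines 2, 7 and 8 (adjusted p = 0.739). Most of its range lay in the Ad-Cre arrays, at 6.85 to 8.09, against 10.04 to 10.32 with Ad-GFP. Line 7 minus line 8 was -0.76 ± 0.24 (SE; limma adjusted p = 1). Fut9 read 10.52, 9.92 and 10.07 (adjusted p = 0.741), with line 2 high through its Ad-Cre array. St8sia1 read 8.34, 8.85 and 8.29 (adjusted p = 0.739), highest in line 7. With Ad-GFP its lines 2 and 7 read 8.75 and 8.77, so line 2 was low through its Ad-Cre array. The other 6 ranged by 0.17 to 0.53 between lines, with adjusted p from 0.739 to 0.942.

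Other genes of glycosphingolipid metabolism were taken from lists by step, and 71 of 75 were measured. By limma, blocked on line, 0 of the 71 had an adjusted p under 0.05, as did 0% of all genes (82 genes with no block for line). At an unadjusted p under 0.05 there were 8 lower and 8 higher of the 71, where all genes gave 5.58% lower and 7.04% higher. The 16 became 18 without line 2, 8 without line 7 and 9 without line 8. Without line 2, 5 of the 71 (7.04%) had an adjusted p under 0.05, against 1211 of 23152 genes (5.23%), a share near that of all genes. The 5 were Casd1 at -1.93, Ugt8a at -1.46, B3gat2 at -0.66, St3gal1 at 0.71 and Gm2a, the GM2 activator protein of the lysosome, at -0.55. Without line 7 or line 8 it was 0 of the 71. Each such fit rests on 2 lines, with fewer residual degrees of freedom than the main fit, so its calls are not firmer. The lists were chosen with earlier results of these data known, so their counts are a description. By mean signal 7 of the 71 lay below the lower quartile of probe set signals (6.59), against 6861 of the 23152 genes, so these shares are not matched for brightness. The median of the 71 was -0.01, against 0.03 over all genes. In all 3 lines 18 were lower and 15 higher, beside the 16.2% and 22.1% of all genes given above. The largest differences among them were lower signals of Casd1 and Ugt8a.

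Casd1, which acetylates sialic acid and so makes the 9-O-acetylated form of GD3, differed by -2.14, or 4.42-fold. Its differences were -2.58, -2.09 and -1.76 in lines 2, 7 and 8, with an SE of 0.18 and a limma adjusted p of 0.0768. Of its 21 probe sets 20 were lower in all 3 lines, and the brightest gave -0.42. Ugt8a, which makes galactosylceramide, the lipid that Gal3st1 sulfates, differed by -1.47, -1.53 and -1.38 (mean -1.46 ± 0.10, SE; limma adjusted p = 0.0669). Its brightest probe set gave 0.23 against a median of -1.58 over its 7, so the direction rests on the dimmer ones. By gene summary the 2 enzymes of the sulfatide route were both lower in all 3 lines, as were 16.2% of all genes. Probe sets of each disagreed in direction, and Gal3st1 was chosen with this comparison known.

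Other genes of the ganglioside list differed by less. St3gal1, which adds sialic acid to galactose, was higher by 0.78 ± 0.13 (SE; adjusted p = 0.127), with 0.91, 0.92 and 0.49 in the lines. B3galt4, which extends GM2 and GD2 to GM1 and GD1b, differed by -0.28 ± 0.10 (SE; adjusted p = 0.388). B4galnt1 just before it in the pathway was higher in each line, as given above, and B3galt4 was lower in each. Of the 10 genes of that list 2 were lower and 1 higher at an unadjusted p under 0.05.

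Next to Ugcg and B4galt6 stand B4galt5, the other lactosylceramide synthase, and Sgms2, which uses ceramide for sphingomyelin. B4galt5 was higher by 1.19, 0.37 and 0.23 in lines 2, 7 and 8 (mean 0.60 ± 0.21, SE; adjusted p = 0.356), with the largest value in line 2. Sgms2 was higher by 0.70 ± 0.15 (SE; adjusted p = 0.185). In the list of first sugars, 1 of 6 genes was lower and 2 higher at an unadjusted p under 0.05. Of 16 ceramide synthesis genes 2 were lower and 0 higher. These were Sptssa, a small subunit of serine palmitoyltransferase, at -0.30 ± 0.09 (SE; adjusted p = 0.300), and Ormdl1, which restrains that enzyme, at -0.37 ± 0.12 (SE; adjusted p = 0.318).

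Around B3gnt5 in the lacto and neolacto list, 2 of 16 genes were lower and 2 higher at an unadjusted p under 0.05. The lower ones were B3gat2, a glucuronyltransferase of the HNK-1 epitope, at -0.68 ± 0.10 (SE; adjusted p = 0.107), and B3galt2, a galactosyltransferase, at -0.27 ± 0.10 (adjusted p = 0.366). The higher ones were St3gal4 at 0.36 and the fucosyltransferase Fut1 at 0.20, with adjusted p of 0.345 and 0.393. B4galt1, which adds galactose to the residue that B3gnt5 places, gave 0.19 ± 0.11 (SE; adjusted p = 0.542). Of the 8 other genes of the B3gnt family 0 were lower in all 3 lines and 3 were higher, beside 16.2% and 22.1% of all genes. By mean signal 3 of the 8 lay below the lower quartile of probe set signals (6.59). Among the 8, 1 had an unadjusted p under 0.05, B3gnt9, at 0.27 (adjusted p = 0.357). The 3 further St8sia genes differed in direction. St8sia4, which makes polysialic acid, differed by -0.34 ± 0.11 (SE; adjusted p = 0.327). St8sia2, the other polysialic acid synthase, had the larger difference, at 0.96 ± 0.41 (SE; adjusted p = 0.430), and was higher by 2.17, 0.62 and 0.09 in lines 2, 7 and 8, so line 2 carried most of it. St8sia6 gave -0.04. St8sia2 and St8sia6 were added after their values were seen.

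Of 15 breakdown genes 1 was lower and 3 higher at an unadjusted p under 0.05. The fucosidase Fuca1 was higher by 0.31, the lysosomal galactosidase Glb1 by 0.26 and the ganglioside sialidase Neu3 by 0.26, while the glucosylceramidase Gba2 differed by -0.35, all with adjusted p from 0.261 to 0.388. In the globo and transfer lists, of 4 genes each, 0 genes had an unadjusted p under 0.05. B3galnt1, of the globo list, had the lowest p there, at -0.25 (adjusted p = 0.484), and Col4a3bp, the ceramide carrier, had the lowest of the transfer list, at -0.06 (adjusted p = 0.828).

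**Figure D3:**
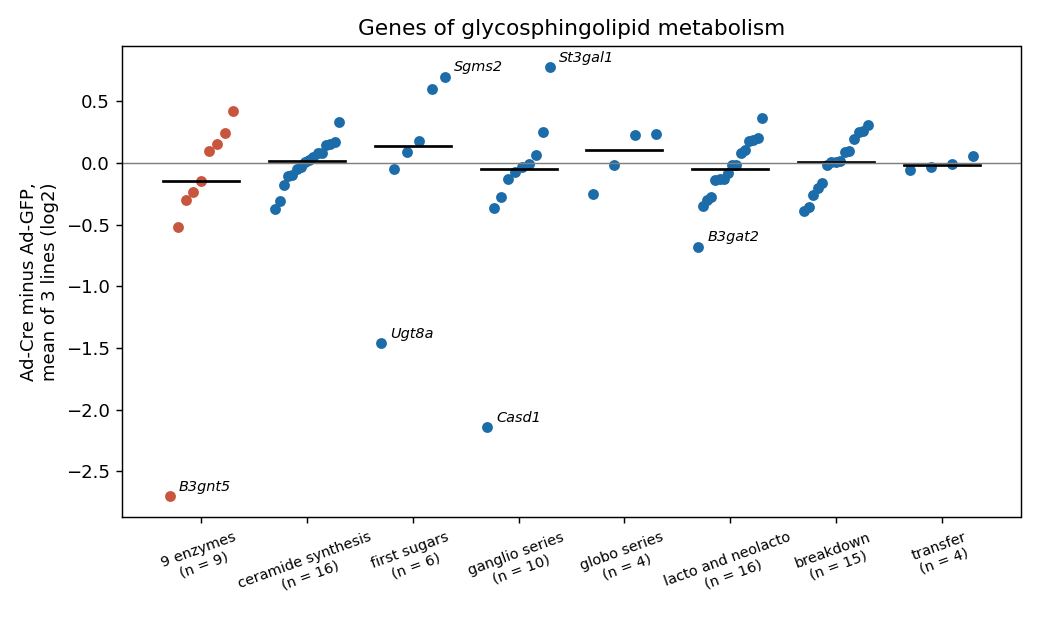
Mean difference of each gene (vertical axis, Ad-Cre minus Ad-GFP over 3 lines, log2) for the 9 enzymes and for 7 lists of other genes of the pathway, where a point is 1 gene and a bar is the median of its list. Genes more than 0.65 from 0 are named, and B3gnt5, Casd1 and Ugt8a lie lowest at -2.70, -2.14 and -1.46.

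The genes whose signals over the 6 arrays were most like those of B3gnt5 were found from the root mean square distance of signals centred on each gene's mean. The 5 nearest were Has2, a hyaluronan synthase (0.33), Cdo1, which oxidises cysteine (0.41), Slc2a12, a sugar transporter (0.42), Gpx3, a secreted glutathione peroxidase (0.42), and Mmp16, a membrane metalloproteinase (0.46). In lines 2, 7 and 8 Has2 differed by -3.11, -2.44 and -2.24, and Cdo1 by -3.21, -3.39 and -2.58. Of the other 8 enzymes Gal3st1 came closest, at rank 635, with a distance of 1.17. The choice of measure decides these names, since the 5 nearest by Pearson r over the same 6 arrays, led by Lnx1 (r = 0.995), included 0 of them. Arrays share lines and the virus difference, so r is a description.

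Markers of other cells differed in both directions. Over the 8 lists of markers 21 of 61 genes were lower in all 3 lines and 11 higher, where all genes gave 16.2% and 22.1%. Of 10 genes of oligodendrocyte progenitors 4 were lower in all 3 lines and 0 higher, and their mean log2 signal was 11.05 to 11.22 with Ad-GFP and 10.44 to 10.51 with Ad-Cre. The brightest, Ptprz1 and Olig1, differed by -0.13 and -0.17, while Pdgfra and Gpr17 differed by -2.72 and -2.86. Cspg4, Olig2 and Neu4 gave 0.013, -0.01 and -0.013, and these 5 genes were picked out after their values were seen. The median difference of the 10 was -0.15, and Pdgfra and Gpr17 carried most of the lower list mean. The 10 genes were all above the lower quartile of probe set signals (6.59). In bulk RNA fewer cells of a type and less RNA per cell cannot be told apart, and the part of these genes in the B3gnt5 difference was not tested.

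Of 7 myelin genes measured 3 were lower in all 3 lines and 1 higher, with a mean signal of 7.62 to 7.74 with Ad-GFP and 7.45 to 7.59 with Ad-Cre. Cnp and Ugt8a were the brightest, at -0.53 and -1.46, and 1 gene, Mag, lay below the lower quartile. Of 8 neuronal genes 4 were lower in all lines and 2 higher (8.87 to 8.92 with Ad-GFP, 8.37 to 8.62 with Ad-Cre), led in brightness by Map2 at -0.10 and Snap25 at -2.45. Of 8 astrocyte genes 3 were lower in all lines and 0 higher (10.73 to 10.97 and 9.98 to 11.11, highest on the Ad-Cre array of line 2). Slc1a3 and Aldoc were the brightest, at -0.01 and -0.16. Of 8 neural stem cell genes 4 were lower and 2 higher in all lines (11.50 to 11.67 and 11.31 to 11.40), with Vim at 0.09 and Fabp7 at -0.12. The median differences of the myelin, neuronal, astrocyte and stem cell lists were -0.08, -0.14, -0.16 and -0.08. Snap25 carried most of the lower neuronal mean, and Ugt8a that of the myelin list.

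Markers of cells from outside the neural lineage were dimmer. Of 7 microglia genes 0 were lower and 3 higher in all lines (6.87 to 6.94 with Ad-GFP, 6.93 to 7.05 with Ad-Cre), with Ptprc and Aif1 below the lower quartile and Tmem119 and Cx3cr1 brightest at 0.21 and 0.05. Of 6 endothelial genes 1 was lower and 0 higher (6.87 to 6.91 and 6.91 to 7.03), with Cldn5 below the lower quartile and Kdr and Flt1 brightest at 0.29 and 0.06. Of 7 genes of fibroblasts, meninges and pericytes 2 were lower and 3 higher (7.28 to 7.54 and 7.11 to 7.13). Lum, Rgs5 and Dcn lay below the lower quartile, and Acta2 and Pdgfrb, the brightest, differed by -2.35 and -0.61. The median difference of this list of 7 was 0.09, so its lower mean rests on few genes, mainly Acta2. Of the 61 marker genes measured over these 8 lists 0 had an adjusted p under 0.05 by limma, and at an unadjusted p under 0.05 there were 16 lower and 6 higher, beside 5.58% and 7.04% of all genes. These shares are not matched for brightness, as 7 of the 61 lay below the lower quartile, against 6861 of the 23152 genes. Without line 2, 18 of the 61 (29.5%) had an adjusted p under 0.05, against 5.23% of all genes. Without line 7 or line 8 it was 0 of the 61. A fit without a line rests on 2 lines and has fewer residual degrees of freedom than the main fit. The marker lists were chosen with earlier results of these data known, so these shares are a description and no independent test.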

How the data were processed

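Total RNA of 6 cultures was read on 1 Affymetrix array each. Each probe set has a deposited log2 signal. Per the submitters' processing notes the authors used RMA in Affymetrix Expression Console, with version, settings and build not given in the sources used here. This method equalises the arrays, so a shift shared by most genes would be hidden, and dim signals understate differences. Arrays were grouped by virus and numbered line from the titles. All array columns of the table were used.

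Of 269751 probe sets, GEO's platform annotation gives 1 symbol to 233753, several to 5106 and none to 30892. Those with 1 symbol were summarised to 23152 genes by median polish (at most 20 iterations). Of 157 list entries, 10 were matched through a synonym (GRCm38.p6 table) and 5 were not matched. Promoter windows were found for 5 of the 9 enzymes.

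Ad-Cre and Ad-GFP were compared with limma 3.58.1 (R 4.3.3, labels read through jsonlite 2.0.0). The model had line as a block and a variance trend, p-values were adjusted by Benjamini-Hochberg across the 23152 genes with a threshold of 0.05, and it left 2 residual degrees of freedom. A line is a replicate, with 1 culture per virus, and its source embryo is not stated. The design pairs the arrays. Deviations of the paired arrays from their virus mean correlated across genes at 0.226, 0.163 and 0.333 for lines 2, 7 and 8. The same model gave the F test between lines, and code was tested on simulated data. Members and gene lists were chosen with earlier results of these data known. Named genes of each pathway list were up to 3 per direction with the lowest unadjusted p under 0.05, or else the 1 with the lowest p, with Ugt8a, B4galt5, B4galt1 and B3galt4 always named. Of each marker list the 2 brightest with Ad-GFP were named. Alternatives were other summaries, normalizations, filters, variance and block models, line 8 labels exchanged and each line left out.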

Additional observations from a re-analysis of the deposited data

How the results depend on the processing

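Of the 9 enzymes, B3gnt5, B4galt6, B4galnt1, St8sia5 and Gal3st1 kept the sign of their mean difference under all 10 alternatives tried for them. B3gnt5 ranged from -2.94 to -2.46 when a line was left out. With the labels of line 8 exchanged, as the sample descriptions would have it, B3gnt5 gave -1.21, and 0 of the 9 enzymes had 1 direction in all 3 lines. The 4 that had 1 direction before become mixed by arithmetic, since the exchange reverses the sign of line 8, and nothing is read from that. By the same reversal the correlations of line 8 with lines 2 and 7 over all genes, positive as titled, become negative. Leaving out a line gave 4 to 7 enzymes with 1 direction, over the 2 lines that remain. The exchange turned Ugcg to -0.08, St3gal5 to 0.14, B3galnt1 to 0.10, Col4a3bp to 0.012 and St3gal4 to -0.053. The brightest probe set alone turned B3galt2 to 0.17, Neu3 to -0.12 and Ugt8a to 0.23. Medians of probe set differences, chosen after seeing the data, gave -1.04 for Gal3st1.

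Calls depended on the block model, the probe set summary and the lines kept. Genes with an adjusted p under 0.05 between the viruses numbered 0 in the main fit, 82 with no replicate block and 241 with a random replicate block. With the block of the main fit they numbered 73 from the mean of probe sets, 0 with no variance trend and 0 to 1211 when a line was left out. Fits without a line keep 2 lines and fewer residual degrees of freedom than the main fit. At an unadjusted p under 0.05 the main fit gave 2923 genes and 16 pathway genes, and a new fit under the exchange gave 418 and 1. Leaving out a line gave 1949 to 4049 genes and 8 to 18 pathway genes. Adjusted counts of pathway and marker genes were added after seeing the data. With no replicate block 2 pathway genes were called and with a random one 4. Between lines, 1 gene was called from the brightest probe set, 0 under the exchange and 0 to 37 when a line was left out. The 5 genes nearest to B3gnt5 shared 0 with those by Pearson r. The cause of these shifts was not tested. With 3 lines, 2 residual degrees of freedom and dim genes near background, small differences could not be resolved.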
